A study of Mus musculus with 2 samples.

Results

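The 10 genes described here belong to fibroblast growth factor (FGF) signalling, and were chosen by name among the 32285 genes measured: Fgf7, Fgf10, Fgfr1, Fgfr2, Fgfr3, Spry1, Spry2, Spry4, Etv4 and Etv5. Each had 1 row in the tables. They were followed in 2 single-cell RNA libraries of mouse dorsal skin taken on postnatal day 3. The control animals were of genotype Wildtype and the others of genotype miR-200b induced, and Dox is the treatment given for both libraries. Epidermal and dermal cell suspensions had been combined 30 to 70 in both. The labels name neither the construct, the promoter or the cell type that drives it, nor the number of animals, and strain and sex were not used here. With 1 library per genotype, library and genotype cannot be told apart, no test between the genotypes was possible, and every interval below covers counting error only.

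FGF ligands bind receptor tyrosine kinases at the cell surface together with heparan sulphate, and the receptors signal through the Ras and MAP kinase cascade. In skin, Fgf7 and Fgf10 are known as ligands made by mesenchymal cells, among them the dermal papilla at the base of the hair follicle, that act on the epithelial splice form of Fgfr2. Sprouty proteins (Spry1, Spry2, Spry4) dampen the cascade, and the ETS transcription factors Etv4 and Etv5 are widely used as genes that FGF signalling switches on. The libraries read the 3′ ends of transcripts, so the splice forms of Fgfr2 could not be told apart.

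The genotype label names a microRNA, so its sequence and its matches in the members are shown first, with the seed (bases 2 to 8) and the letters opposite it in capitals. The mature sequences below, from RefSeq on GRCm38.p6, show the seed groups: microRNA-200b and microRNA-429 share 1 seed, and microRNA-200a, which lies in the same cluster on chromosome 4, has another. Mature microRNA-200b lies at chr4:156055685-156055706 on the minus strand.
mmu-miR-200b-3p: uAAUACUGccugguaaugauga
mmu-miR-429-3p: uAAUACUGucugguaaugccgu
mmu-miR-200a-3p: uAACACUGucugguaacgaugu

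Searched on the sense strand only, the 7-base match to the microRNA-200b seed, CAGTATT, occurred once in the 3′ untranslated region (UTR) of Fgf10 and once in that of Etv5. The stretches below are from GENCODE vM21 transcripts on GRCm38, 5′ to 3′ on the strand of the gene. The Fgf10 site lies at chr13:118790998-118791026 on the plus strand, and the Etv5 site at chr16:22382779-22382807 on the minus strand.
Fgf10: ttgtttggattCAGTATTttgataggaac
Etv5: gatgaacatgaCAGTATTttgttttgctt

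The match to the microRNA-200a seed, CAGTGTT, occurred once in Fgf7 (chr2:126090040-126090068, plus strand), once in Etv4 (chr11:101770045-101770073, minus strand) and 2 times in Spry4.
Fgf7: cagacgatgagCAGTGTTtgaaagctttc
Etv4: ccacagagatcCAGTGTTctattctgggg

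Neither match occurred in Fgfr1, Fgfr2, Fgfr3, Spry1 or Spry2. Among 20869 genes with an annotated 3′ UTR, 13.3% held the microRNA-200b match and 17.2% the microRNA-200a match, beside 2 of 10 and 3 of 10 members, counts too small to set apart from these shares. A match is a run of letters in the annotation and does not show binding.

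The libraries held 9072 (control) and 9114 (induced) barcodes, with 100409201 and 119705137 UMIs (unique molecular identifiers, each standing for 1 captured transcript). Filtering and removal of doublets left 4816 and 4890 cells at median depths of 14584.5 and 17850.5 UMIs, and 74 barcode sequences occurred in both libraries, 10 of them among filtered cells. Cell classes were rebuilt from marker genes, and each name below means "-like". Of 41 clusters, 15 of 25 epithelial and 4 of 16 non-epithelial ones were 95% or more from 1 library. Basal cells lay in cluster E6, led by H19, Wnt4 and Igfbp2, and the dividing cluster E23 in the control library, but in E0, led by Igfbp2, Wnt10a and Cbs, and the stress-led E17 (Nfkbia, Atf3, Gadd45b) in the induced library. Spinous cells lay in E10 and E9. Control outer root sheath cells lay mainly in E1, E7 and the heat-shock-led E11 (Hspa1a, Hspa1b), and induced ones in E2 and E3; melanocytes lay in N8 and N1. Fibroblasts shared N0 and N3, but N2 (203 and 6 cells) was mostly control and N7 (12 and 74 cells) mostly induced. Sebaceous cells numbered 209 and 3, too few for a comparison. As a check of the genotype label, Gm13648, the annotated transcript that spans the microRNA-200b hairpin, stood at 2.23 CPM (UMI counts scaled to a common total) in control and 529.5 CPM in induced epithelial cells. It had 0 UMIs in control fibroblasts and stood at 30.3 CPM in induced ones.

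Most ligand UMIs were in dermal cells. Of 313 Fgf7 UMIs in the control library, 158 (50.5%) were in dermal papilla cells, 86 in fibroblasts, 61 in mural cells (the contractile cells of vessel walls and related sheaths) and 7 in epithelial cells. The induced library held 128 Fgf7 UMIs: 48 in dermal papilla cells, 33 in fibroblasts, 4 in mural cells, 17 in an unnamed cluster led by Lpl, Cfd and Hp, and 22 (17.2%) in epithelial cells. Fgf10, the ligand needed for limb and lung buds, was rarer, with 68 and 66 UMIs. Dermal papilla cells held 37 of the control and 25 of the induced Fgf10 UMIs, and epithelial cells held 0 and 1.

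**Figure D1:**
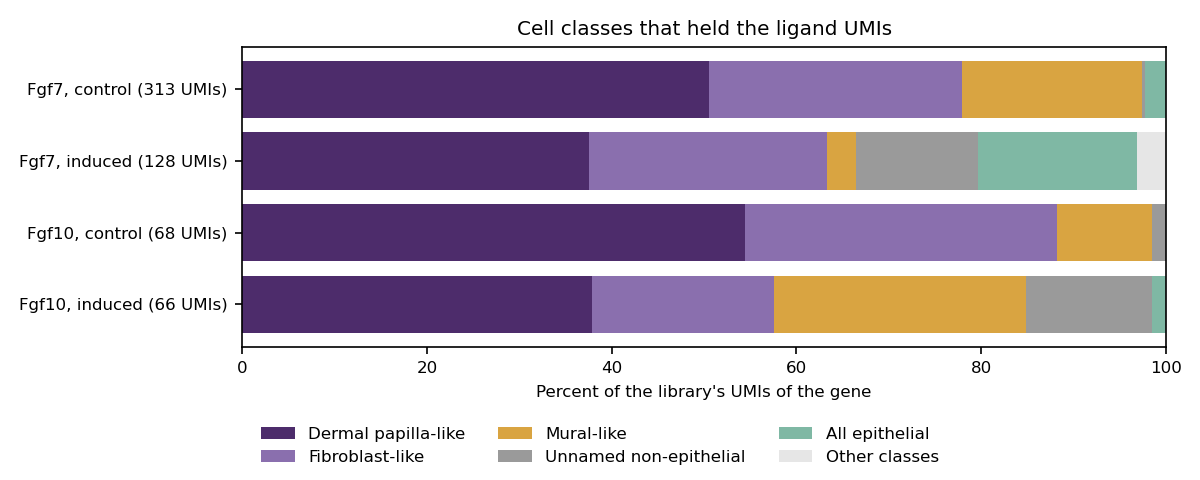
Each bar is 1 ligand in 1 library, cut by the class of the cells that held its UMIs, in percent of the library's UMIs of that gene. Dermal papilla cells held the largest piece of every bar, 50.5% of Fgf7 UMIs in the control library, and the mural piece of Fgf7 is wide only in the control library.

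In dermal papilla cells (43 control and 83 induced cells, with medians of 5844 and 1766 UMIs per cell), Fgf7 stood at 588 CPM and 235 CPM, a log2 ratio of induced over control of -1.32 (95% interval -1.82 to -0.85). This ratio rested on few cells: 17 control and 19 induced cells held any Fgf7 UMI, and the 3 highest control cells held 92 of the 158 UMIs (58.2%). Thinned to 2000 UMIs each, 10 of 43 control cells (23.3%, 11.8 to 38.6) and 10 of 37 induced cells (27.0%, 13.8 to 44.1) had an Fgf7 UMI, and in myeloid cells, which should lack it, 0 of 26 and 0 of 23 did. Under a stricter cell filter the ratio turned to 0.57, so no direction is given for Fgf7 in the papilla. Fgf10 stood at 138 and 122 CPM there, a log2 ratio of -0.17 (-0.96 to 0.60), and the counts do not separate the libraries. A UMI of both ligands was found in 3 of 43 control and 3 of 37 induced papilla cells at 2000 UMIs, and in 11 of 43 and 5 of 83 without thinning.

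In mural cells, Fgf7 had 61 UMIs (64.8 CPM) in control and 4 UMIs (7.82 CPM) in induced cells, and the log2 ratio was -3.05 (-4.97 to -1.62). All 61 control UMIs lay in cluster N11, led by Mef2c, Myl9 and Mylk, where Fgf7 reached 253 CPM in 38 cells. That cluster had only 3 induced cells. In N6, the cluster with the pericyte markers Rgs5 and Cox4i2 and with 52 control and 46 induced cells, Fgf7 had 0 UMIs in both libraries. Fgf10 was also uneven, at 7.44 CPM in control and 35.2 CPM in induced mural cells, and all 18 induced UMIs lay in N13, led by Acta2, Igfbp4 and Lrrc15, which had 1 control cell. The mural values of both ligands therefore compare different clusters.

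In fibroblasts (524 and 237 cells) Fgf7 stood at 16.7 and 24.4 CPM, a log2 ratio of 0.55 (-0.07 to 1.15), and its intervals overlapped. In the fibroblast cluster N0, which both libraries shared (132 and 112 cells), it stood at 33.9 and 34.5 CPM. Fgf10 stood at 4.46 CPM (23 UMIs) and 9.62 CPM (13 UMIs) in fibroblasts, a log2 ratio of 1.11 whose interval, 0.01 to 2.15, barely left 0.

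Fgfr1, a receptor mostly known from mesenchymal cells, was highest in the dermal papilla, at 1414 CPM in the control and 1389 CPM in the induced library. The log2 ratio there was -0.03 (-0.25 to 0.20), and the intervals overlapped widely. At 2000 UMIs, 41 of 43 control papilla cells (95.3%) and 33 of 37 induced ones (89.2%) had an Fgfr1 UMI. Outer root sheath cells, the outer epithelial layer of the follicle, came next among epithelial classes with 167 and 113 CPM. Basal cells of the epidermis had 7.99 and 16.4 CPM and spinous cells 2.28 and 1.80 CPM, so among the epithelial classes compared the outer root sheath had the highest level in both libraries.

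Over all epithelial cells (3954 and 4100 cells, median depths 16061.5 and 21151 UMIs), Fgfr1 had 76.0 CPM (5870 UMIs) in control and 37.4 CPM (3673 UMIs) in induced cells, and the log2 ratio was -1.02 (-1.08 to -0.96). The median gene stood at -0.11 in these cells. The share of cells with a UMI was 16.0% (14.9 to 17.2) and 9.12% (8.22 to 10.1) at 2000 UMIs, and 51.5% and 40.3% without thinning. Among myeloid cells, taken as background, it was 0 of 26 and 1 of 23 at 2000 UMIs (4.35%, 0.110 to 21.9), and 14.3% and 34.8% without thinning. The myeloid Fgfr1 level was 8.74 CPM (4 UMIs) and 35.3 CPM (16 UMIs), the latter near the induced epithelial level, and so few cells set no firm background for the shares. The make-up of the epithelium differed beside it: basal cells, which have little Fgfr1, numbered 542 and 1195. Within outer root sheath cells the log2 ratio was smaller, -0.56 (-0.64 to -0.49). In the sheath clusters that both libraries shared it was 0.02 (-0.49 to 0.49) in E7 and -0.51 (-0.86 to -0.18) in E20. Of 10 epithelial clusters with at least 20 cells of each library, 5 had a higher and 5 a lower value in the induced library. The interval lay wholly below 0 in 5 clusters and wholly above it in none. The lowest of them was the dividing cluster E5 (214 and 259 cells), with 93.9 and 39.0 CPM and a log2 ratio of -1.27 (-1.48 to -1.05). Basal cells went the other way, with a log2 ratio of 1.04 (0.70 to 1.39), but at a clustering resolution of 2.0 this turned to -0.49.

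In fibroblasts Fgfr1 stood at 157 and 285 CPM, a log2 ratio of 0.86 (0.68 to 1.03), opposite in sign to the epithelium. Cluster N0 alone gave 113 and 251 CPM, a log2 ratio of 1.15 (0.81 to 1.49). With doublets kept, the ratio over fibroblasts shrank to 0.15, but that run also regrouped the cells, with 611 induced cells in the class in place of 237. Depth and other cells' RNA moved with the library here: median depth was 9524.5 and 5362 UMIs, all 8 basal keratinocyte markers were detected in both, and their summed level in fibroblasts was 382 and 778 CPM, against 19189 and 14383 CPM in epithelial cells. The 9 fibroblast markers summed to 72448 and 45703 CPM, the 4 mast cell markers to 0.78 and 449 CPM, and the 7 adipocyte markers to 215 and 655 CPM. The part of these differences in the ratio was not tested.

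Fgfr2, the main receptor for both ligands in keratinocytes, differed little over all epithelial cells, at 66.3 and 61.4 CPM (log2 ratio -0.11, -0.16 to -0.06), like the median gene. Averaging the CPM of single cells turned its sign, to 0.03. Dermal cells held Fgfr2 as well: dermal papilla cells had 220 and 269 CPM, more than any named epithelial class, and fibroblasts 84.3 and 109 CPM. Basal cells had the highest level of the named epithelial classes, 131 and 94.4 CPM, a log2 ratio of -0.47 (-0.56 to -0.37). Outer root sheath cells had 81.8 and 83.9 CPM, and the interval of their ratio, -0.06 to 0.13, held 0. Upper follicle cells had more in the induced library, with 13.4 and 24.6 CPM and a ratio of 0.88 (0.35 to 1.40). In each of the clusters that make up this class the interval held 0: 0.67 (-0.13 to 1.44) in E14 and 0.63 (-0.13 to 1.41) in E18. Among the 10 shared epithelial clusters the Fgfr2 value was higher in the induced library in 8 and lower in 2, with the interval above 0 in 2 (E5, 0.35, and E15, 0.76) and below it in 1 (E21). In spinous cells Fgfr2 stood at 31.3 CPM (288 UMIs) and 11.2 CPM (155 UMIs), a log2 ratio of -1.49 (-1.78 to -1.20). The basal keratin Krt14 was also lower in these cells, at 15130 and 2050 CPM, and the 2 libraries' spinous cells came from different clusters.

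Fgfr3, a receptor of suprabasal keratinocytes among other cells, was lower in the same epidermal classes. It stood at 50.6 and 18.7 CPM in spinous cells, a log2 ratio of -1.44 (-1.66 to -1.21), and at 70.9 and 49.7 CPM in basal cells, a ratio of -0.51 (-0.64 to -0.38). Spinous cells came from different clusters in the libraries, with median depths of 27399.5 and 42728 UMIs, and the basal keratin Krt5, like Krt14, was lower in the induced ones, at 5353 and 469 CPM. The part of these differences in the Fgfr2 and Fgfr3 ratios of spinous cells was not tested. Outer root sheath cells, also mostly from different clusters, had 46.0 and 29.8 CPM, a ratio of -0.62 (-0.77 to -0.48). In the granular cluster E19, which both libraries shared, Fgfr3 stood at 14.7 and 14.6 CPM. Among the 10 shared epithelial clusters it was higher in the induced library in 2 and lower in 8. The interval lay above 0 in 2 and below it in 2, from 1.21 (0.84 to 1.59) in the dividing cluster E5 to -0.83 (-1.19 to -0.48) in E15. Upper follicle cells had 48.2 and 92.8 CPM, a ratio of 0.95 (0.68 to 1.21) that turned to -0.20 at a clustering resolution of 0.5. By cluster, Fgfr3 stood at 19.4 and 19.3 CPM in E14, led by Defb6 and Krt79, and at 141 and 184 CPM in E18, led by Wfdc18 and Krt6a. E18 made up 95 of 259 control and 62 of 126 induced upper follicle cells.

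**Figure D2:**
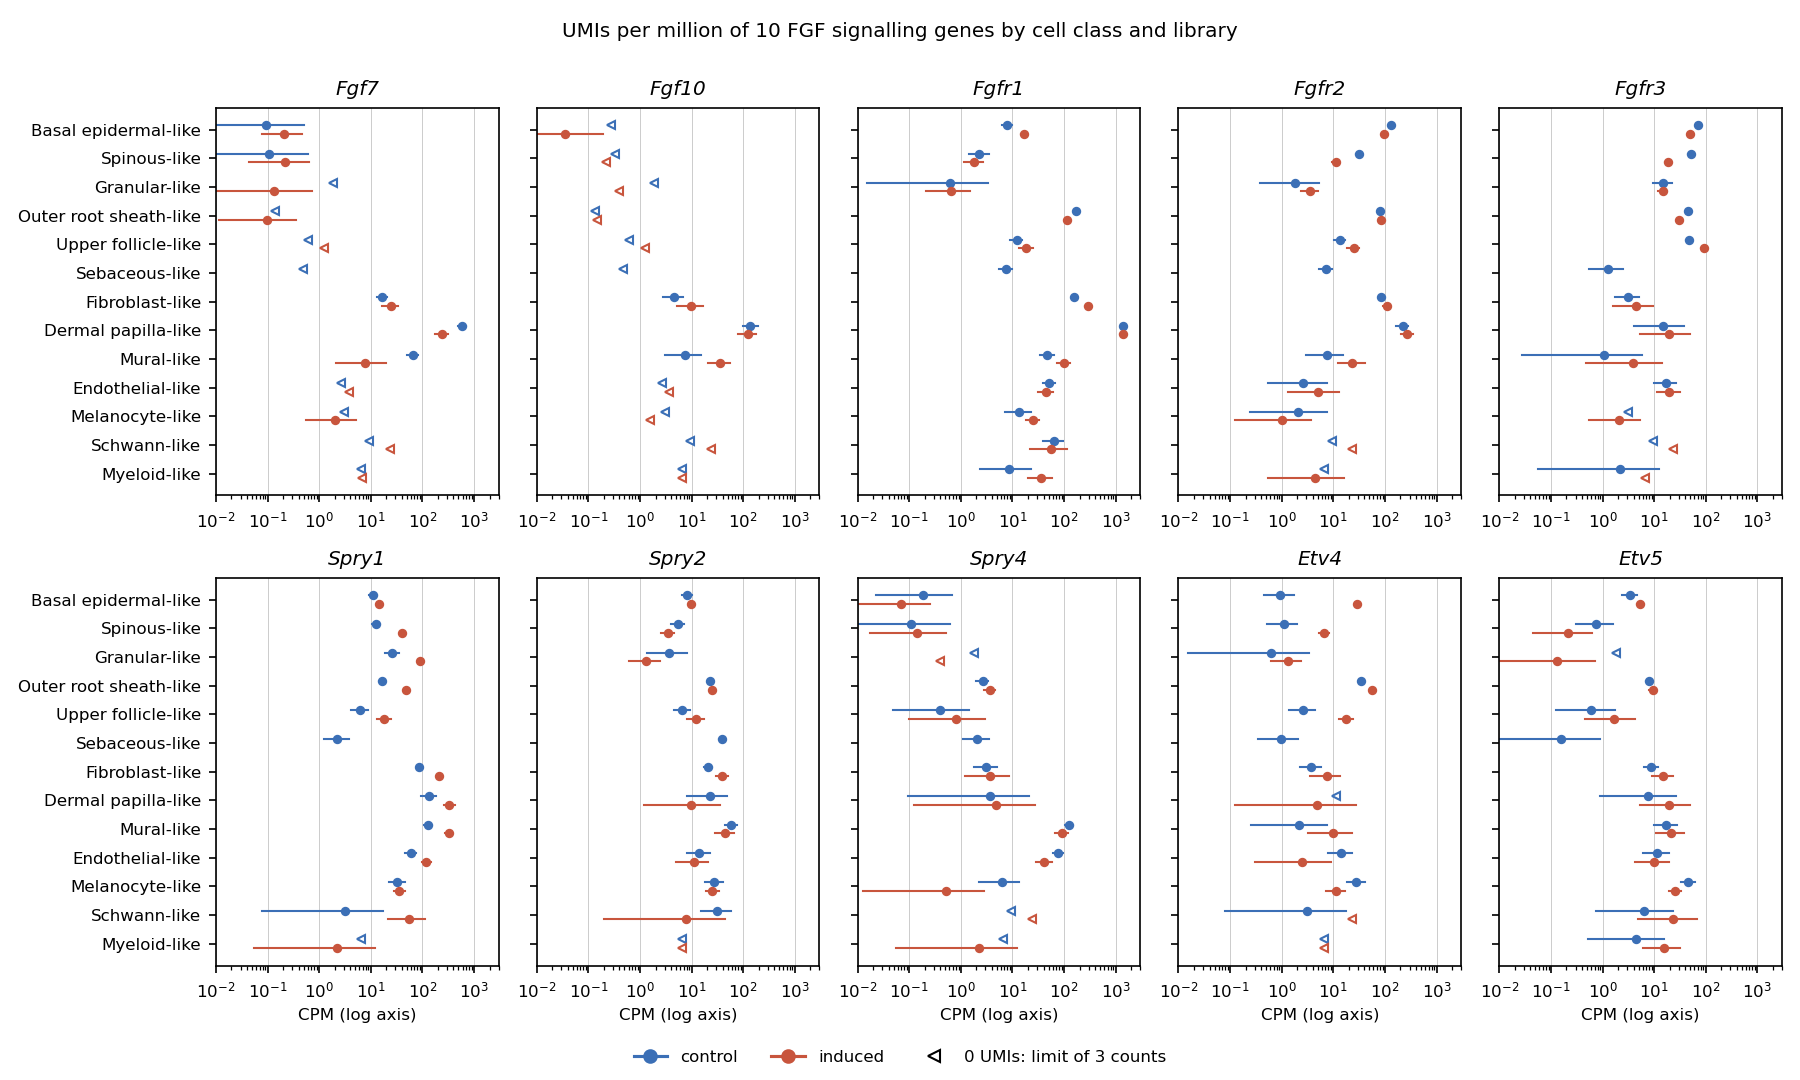
Each panel is 1 gene, each row a cell class, and each point the CPM of the class in 1 library on a log axis, with its exact Poisson 95% interval; open triangles mark the limit that 3 counts would set where a class had 0 UMIs, and classes under 18 cells are left out. Fgf7 and Fgf10 sit in the dermal rows, Fgfr2 in the basal, follicle and dermal rows, Fgfr3 in the basal, spinous and follicle rows, and Spry1 of the induced library lies to the right of the control in every row with at least 30 cells of each library.

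Spry1, a feedback inhibitor of receptor tyrosine kinase signalling, was the member most widely higher in the induced library. Over all epithelial cells its 942 control UMIs made 12.2 CPM and its 3353 induced UMIs 34.1 CPM, and the log2 ratio was 1.48 (1.38 to 1.59). It was past 2-fold with 5 CPM added to both libraries, as 2.66% of the 6364 genes tested in these cells were in that direction. Of the 5 members tested there, 1 was past 2-fold higher and none was past 2-fold lower, where 4.76% of all genes were. Testing required 20 CPM or more in 1 of the libraries and 50 UMIs over both.

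The difference was seen class by class. Spinous cells had 12.8 and 40.5 CPM of Spry1 (log2 ratio 1.66, 1.37 to 1.96), outer root sheath cells 16.2 and 48.7 CPM (1.59, 1.41 to 1.77), and upper follicle cells 6.20 and 18.1 CPM (1.54, 0.85 to 2.26). Basal cells differed least among the epithelial classes, with 11.1 and 14.6 CPM and a ratio of 0.39 (0.09 to 0.69). Among dermal classes, fibroblasts had 87.0 and 212 CPM (1.29, 1.07 to 1.5), dermal papilla cells 134 and 333 CPM (1.31, 0.71 to 1.94), mural cells 128 and 326 CPM (1.36, 1.01 to 1.71) and endothelial cells 59.8 and 120 CPM (1.00, 0.54 to 1.47). With doublets kept and the cells regrouped, the fibroblast ratio was 0.79, under 2-fold. In the papilla cells the basal markers summed to 469 and 1203 CPM, the spinous markers to 703 and 2279 CPM, and the median mitochondrial share was 6.41% and 8.61%. In mural cells the dermal papilla markers summed to 230 and 711 CPM, the hair shaft markers to 61.7 and 604 CPM and the adipocyte markers to 174 and 1900 CPM. In endothelial cells the lymphatic markers summed to 98.4 and 1585 CPM, and the adipocyte markers, which include the cluster's leading gene Fabp4, to 3072 and 12479 CPM, with a median mitochondrial share of 5.47% and 7.38%. The part of these values in the Spry1 ratios was not tested. Melanocytes had 32.8 and 35.9 CPM of Spry1, and their interval of -0.49 to 0.78 held 0. In all, 9 of 9 classes with at least 30 cells of each library had a higher Spry1 value in the induced library, and in 8 the interval lay above 0.

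Clusters that both libraries shared gave the same direction, but they are no separate support, since they come from the same 2 libraries. N4 and N5 hold the same cells as the endothelial and papilla classes, and E14 and E18 together those of the upper follicle class. Of 10 epithelial and 6 non-epithelial clusters with at least 20 cells of each library, Spry1 was higher in the induced library in 10 and 6, with the interval above 0 in 8 and 5. The myeloid cluster N10 counts among these with 0 and 1 UMI. The share of all genes that were higher in as many classes or clusters was not computed. The granular cluster E19 had 26.3 and 90.1 CPM, and the outer root sheath cluster E7 (led by Sfrp1, Nppc and Scrg1) had 14.7 and 66.6 CPM. The dividing cluster E5 had 14.6 and 14.9 CPM, a ratio of 0.03 (-0.41 to 0.47). The pericyte-marked cluster N6 had 161 and 395 CPM.

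The share of cells with a Spry1 UMI moved with the CPM. At 2000 UMIs per cell it was 2.38% (1.93 to 2.91) of 3907 control and 6.25% (5.51 to 7.06) of 3839 induced epithelial cells, and 16.3% and 39.2% without thinning. In fibroblasts it was 12.7% (9.97 to 15.9) and 34.4% (28.0 to 41.3), against 0 of 26 and 0 of 23 myeloid cells, the class taken as background (medians of 17095.5 and 18929 UMIs). These counts allow shares of up to 11.5% and 13.04%, so they set no background for the epithelial shares. Without thinning, 1 of 23 induced myeloid cells had a Spry1 UMI. Gm13648 was high in induced epithelial classes (751.7 CPM in basal, 469.2 in spinous and 467.2 in outer root sheath cells) and stood at 30.3, 24.5, 19.5 and 17.3 CPM in induced fibroblasts, papilla, mural and endothelial cells. In the 23 induced myeloid cells it was higher, at 74.9 CPM, where Krt14 stood at 987 CPM against 136 CPM in control myeloid cells. Basal keratinocyte markers summed to 778 CPM in induced fibroblasts and 14383 CPM in induced epithelial cells, and the part of other cells' RNA in these low Gm13648 levels was not tested.

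**Figure D3:**
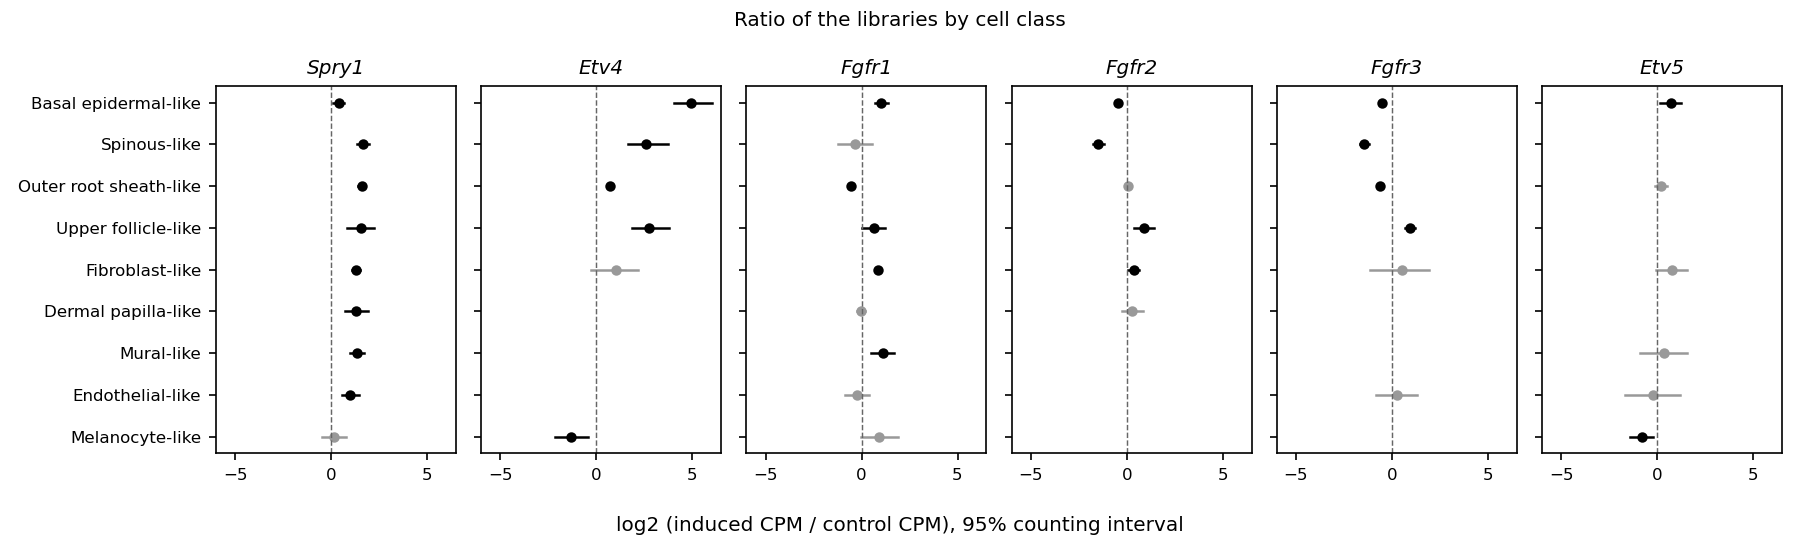
Each panel is 1 gene and each row a class; points are log2 ratios of induced over control CPM with exact conditional 95% intervals, black where the interval leaves out 0 and grey where it holds 0, and rows under 20 UMIs over both libraries or with no UMI in 1 library are not drawn. Spry1 is right of 0 in all 9 rows, and the receptors change side between rows. Etv4 is right of 0 in 4 epithelial rows and, in grey, in fibroblasts, and left of it in melanocytes.

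Spry2 and Spry4, which act at the same step, did not share this pattern. Spry2 stood at 16.7 and 12.4 CPM over all epithelial cells, a log2 ratio of -0.43 (-0.54 to -0.31), and at 20.7 and 39.2 CPM in fibroblasts, a ratio of 0.92 (0.42 to 1.41). Part of the control epithelial level lay in sebaceous cells, with 38.4 CPM (242 of 1287 UMIs), a class that had 3 cells in the induced library. Outer root sheath cells had 23.0 and 25.2 CPM and an interval of -0.05 to 0.31.

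Spry4 was highest in the cells of vessels. It stood at 125 and 89.9 CPM in mural cells and at 76.4 and 40.8 CPM in endothelial cells, and at 1.59 and 1.26 CPM over all epithelial cells. The endothelial log2 ratio was -0.91 (-1.53 to -0.31). Lymphatic and adipocyte markers also differed between the libraries in endothelial cells, as given above, and their part in this ratio was not tested. In the mural cluster N6, which held 118 of 118 control and 45 of 46 induced mural Spry4 UMIs, it stood at 169 and 183 CPM, a ratio of 0.11 (-0.41 to 0.62).

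Etv4 separated the libraries most sharply in basal cells of the epidermis. It stood at 0.929 CPM in control basal cells (10 UMIs in 542 cells) and at 28.4 CPM in induced ones (808 UMIs in 1195 cells), a log2 ratio of 4.93 (4.05 to 6.0). At a clustering resolution of 2.0 the ratio was 3.602, and under the 4 other alternatives it lay between 4.44 and 4.97. Among basal cells 2.52% of genes tested were past 2-fold higher and 5.20% past 2-fold lower. Of the 3 members tested there, Etv4 alone was past it. At 2000 UMIs, 1 of 539 control basal cells (0.186%, 0.00470 to 1.03) and 68 of 1189 induced ones (5.72%, 4.47 to 7.19) had an Etv4 UMI, and 1.85% and 36.2% did without thinning. Myeloid cells, taken as background, had 0 Etv4 UMIs in 28 control and 23 induced cells, too few to set a background for the shares at 2000 UMIs. Both induced basal clusters carried Etv4, with 28.1 CPM in E0 and 30.0 CPM in the stress-led E17. At 2000 UMIs, 1 of 1189 induced basal cells had a UMI of both Etv4 and Spry1, 67 had Etv4 only and 34 Spry1 only. Without thinning, 136 of 1195 had both, 297 Etv4 only and 185 Spry1 only.

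In outer root sheath cells Etv4 was already present in the control library, at 34.4 CPM, and reached 56.9 CPM in induced cells (log2 ratio 0.73, 0.59 to 0.86). Spinous cells had 1.09 and 6.62 CPM (2.61, 1.66 to 3.72) and upper follicle cells 2.60 and 17.7 CPM (2.76, 1.84 to 3.78). Over all epithelial cells the levels were 15.1 and 30.2 CPM, a ratio of 1.00 (0.90 to 1.10), or 0.81 once 5 CPM were added to both. Outer root sheath cells had the highest Etv4 level of these 4 classes in both libraries. Basal cells were, with spinous cells, at the low end in the control library, at 0.929 CPM, and had the second highest in the induced one, at 28.4 CPM.

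Etv4 was not higher everywhere. Among the 10 shared epithelial clusters it was higher in the induced library in 9, with the interval above 0 in 5, and lower in E21, led by the hair keratin genes Krt35 and Krt33a and also holding Shh, a signal of the hair matrix, among its leading genes. There Etv4 stood at 78.4 CPM (135 UMIs, 63 cells) and 36.9 CPM (38 UMIs, 52 cells), a log2 ratio of -1.09 (-1.65 to -0.56). Melanocytes had 27.7 and 11.3 CPM (-1.30, -2.18 to -0.43). Endothelial cells, whose marker levels differed as given above, had 14.1 CPM (16 UMIs) and 2.47 CPM (2 UMIs), a ratio of -2.51 (-5.67 to -0.42). Fgfr2 was lower in E21 as well, at 149 and 96.2 CPM, a ratio of -0.63 (-0.98 to -0.29).

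**Figure D4:**
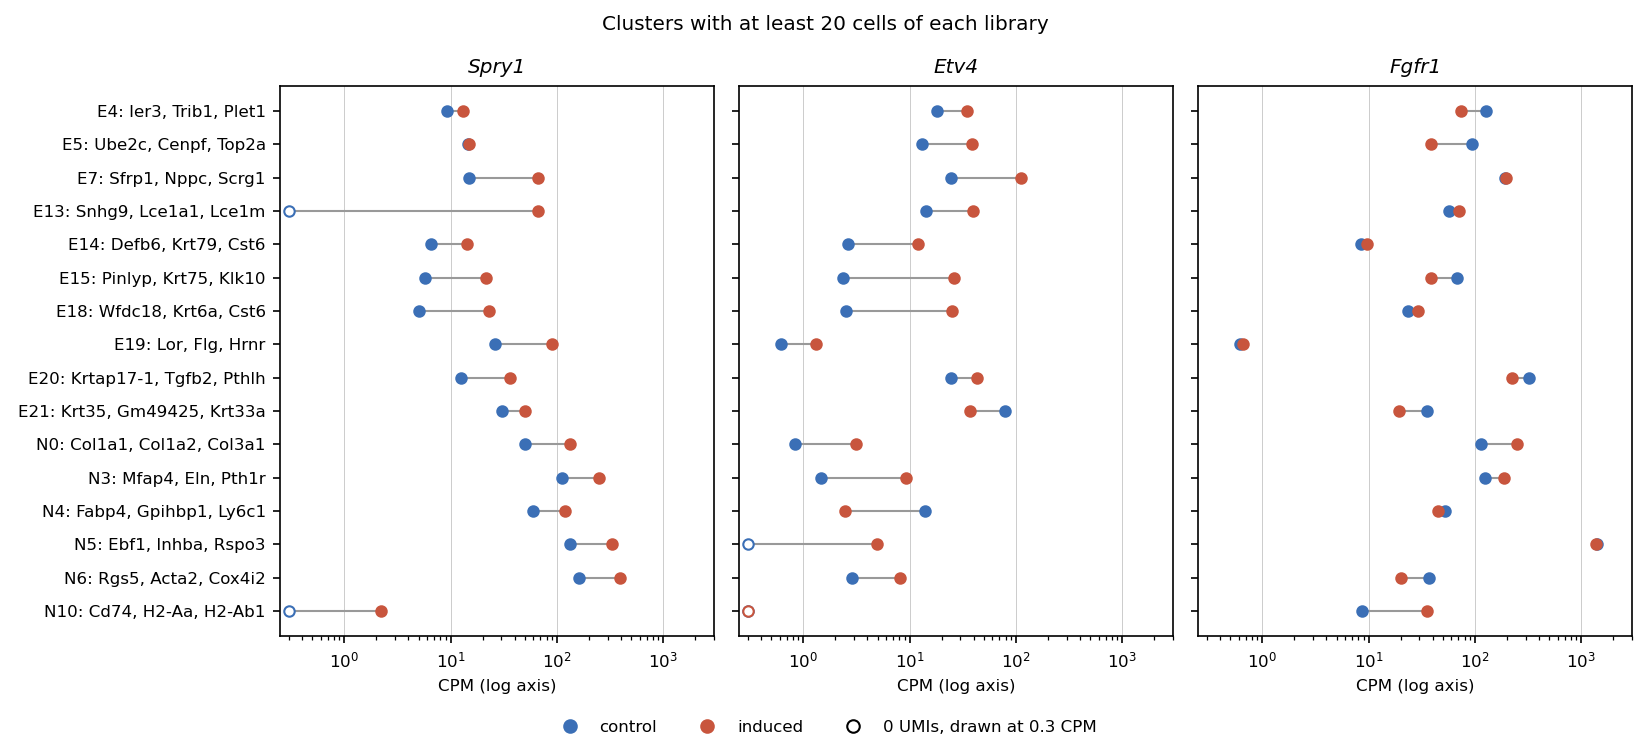
Rows are the clusters with at least 20 cells of each library (E, epithelial; N, non-epithelial), named by their 3 leading genes, and the points are CPM in the control and induced library on a log axis, with open points for 0 UMIs. The induced Spry1 point lies to the right in all 16 rows, the Etv4 point lies to the left in E21 and N4, and 5 of the 10 epithelial Fgfr1 points of the induced library lie to the left of the control.

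Etv5 stood at 3.86 CPM in control and 4.99 CPM in induced epithelial cells, a log2 ratio of 0.37 (0.16 to 0.58), smaller than that of Etv4. Melanocytes had its highest level in both libraries, 45.1 and 25.6 CPM (-0.82, -1.43 to -0.20). Both factors had lower values in induced melanocytes. Etv5 could be tested there and was not past 2-fold with 5 CPM added (1.66% of genes tested were past it and lower, and 2.55% higher), while Etv4, with 27 and 22 UMIs, was under the minimum for testing. The melanocytes of the libraries came from separate clusters of 79 and 238 cells.

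The members past 2-fold were also counted by class. In outer root sheath cells 1 of 6 members, Spry1, was past it and higher, against 3.01% of all genes, and none was lower, against 5.69%. In spinous cells 1 of 3 was higher (5.55% of genes) and 2 of 3, Fgfr2 and Fgfr3, were lower (6.21%). In the epithelial clusters left without a name (1233 and 1082 cells, of differing make-up) none of 5 was higher (3.61%) and 1, Fgfr1, was lower (4.27%), at 89.0 and 31.4 CPM, a log2 ratio of -1.50 (-1.63 to -1.39). None of 2 members in upper follicle cells (4.35% of genes higher, 3.66% lower) and none of 3 in endothelial cells (4.09% and 7.34%) was past it. In fibroblasts 1 of 5, Spry1, was higher (3.80%) and none lower (2.52%), a call that was lost with doublets kept and the cells regrouped. In mural cells 2 of 5, Spry1 and Fgfr1, were higher (5.47%) and 1, Fgf7, was lower (9.17%). The mural values again compare different clusters, and in the shared cluster N6 Fgfr1 stood at 37.3 CPM (26 UMIs) and 20.4 CPM (5 UMIs), a ratio of -0.87 (-2.61 to 0.53). In dermal papilla cells 1 of 5, Spry1, was higher (8.16%) and 1, Fgf7, was past 2-fold lower (14.0%), the value that turned under the stricter filter.

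Of 83 further genes of the pathway (other ligands, coreceptors, adaptors, kinases, phosphatases and target genes), 40 could be tested over all epithelial cells. None was past 2-fold higher, where 2.66% of all genes were, and 1 was past 2-fold lower, where 4.76% were: Sulf2, which trims sulphate groups from heparan sulphate, at 37.9 and 9.02 CPM (log2 ratio -2.07, -2.18 to -1.96). The median of the 40 was -0.18 with 5 CPM added, beside -0.11 for all genes. Other genes of the cascade went both ways: Dusp6, a phosphatase that switches off MAP kinase and a leading gene of the stress-led cluster E4 (475 control and 24 induced cells), stood at 39.3 and 36.4 CPM, the inhibitor Spred1 at 48.4 and 30.3 CPM, and the immediate early gene Egr1 at 619 and 379 CPM. Dusp7, another phosphatase of MAP kinase, stood at 43.5 and 86.9 CPM, higher in the induced library like Spry1 and Etv4.

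In fibroblasts 38 of the 83 could be tested, of which 4 were past 2-fold higher and none lower, where 3.80% and 2.52% of all genes were. The median was 0.22 beside 0.03 for all genes. Egr1 stood at 106 and 411 CPM (1.95, 1.78 to 2.13) and Myc, a growth regulator, at 9.11 and 23.7 CPM (1.38, 0.68 to 2.06). Sdc4, a heparan sulphate coreceptor, stood at 68.8 and 153 CPM. Fgfbp1, a carrier of FGF proteins, stood at 4.46 and 20.7 CPM. In the shared cluster N0 the log2 ratios were 1.21 (0.90 to 1.52) for Egr1, 0.86 (0.47 to 1.247) for Sdc4, 2.17 (0.91 to 3.57) for Fgfbp1 and 0.92 (-0.82 to 2.66, 7 UMIs in each library) for Myc. In epithelial cells Fgfbp1 had 378 and 371 CPM and Sdc4 383 and 471 CPM, and keratinocyte markers were higher in induced fibroblasts, as given above. Their part in these values was not tested. Spred1, another inhibitor of the cascade, stood at 113 and 182 CPM in fibroblasts (0.69, 0.47 to 0.91) and had a ratio of 0.58 (-0.02 to 1.17) in N0.

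Across 21 class-by-library profiles, the genes whose levels followed a member most closely are given as a description, since the profiles share libraries, depth and clustering. For Fgf7 they were Rgs6, Sobp and Hhip (Pearson r 0.97, 0.95 and 0.95), and for Fgf10 Smoc1, Bmp3 and Lamc3 (0.98 each). Fgfr1 was followed by Hdgfl3, Ptch1 and Tet1 (0.93 each), Fgfr2 by Hs3st6, Sdk2 and Col7a1 (0.91, 0.90 and 0.89), and Fgfr3 by Cish, Pgap2 and Hotairm1 (0.88, 0.88 and 0.86). For Spry1 they were Snai1, Zfp945 and Wdfy3 (0.85, 0.84 and 0.84), for Spry2 Rxylt1, Lzts2 and 9530068E07Rik (0.89, 0.86 and 0.84), and for Spry4 Aoc3, 9930111J21Rik2 and Pear1 (0.96, 0.95 and 0.95). Etv4 had the weakest matches, Sap30, Mrpl24 and Zfas1 (0.78, 0.76 and 0.76), and Etv5 had Htra2, Gps2 and Mical1 (0.94, 0.93 and 0.92). Hhip and Bmp3 were among the markers used to name dermal papilla cells.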

How the data were processed

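Single-cell 10x Genomics libraries (2) of postnatal day 3 mouse skin were compared, grouped by the genotype label. The deposited values were raw UMI counts per gene and barcode; Cell Ranger 6.0.0 and mm10 are named in the submitters' processing notes, and cell-calling settings are not given in the sources used here. Barcodes with at least 1000 UMIs, at least 500 genes and under 15% mitochondrial UMIs were kept (5178 and 5258). Scrublet (scanpy 1.11.5) marked only 8 (0.154%) and 7 (0.133%) cells and was unusable, so the top 7% of scores per library were taken out (362 and 368). Counts scaled to 10000 per cell were log-transformed and centred within each library; 2000 variable genes, without the members and the pathway list, 30 components and 15 neighbours gave Leiden clusters (leidenalg 0.10.2, resolution 1.0). Clusters above 3000 CPM of summed keratins were epithelial.

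A class name needed 3 markers detected in 25% of cells and raised 1.5-fold with 20 CPM added, and 1 marker among the 10 leading genes or 50% of the list raised; these thresholds were chosen with the data in view. The members, gene lists and markers were chosen with earlier results of these data known. Summed UMIs of a class and library were turned into CPM, with Poisson 95% limits computed exactly, ratios have exact conditional binomial intervals and shares have Clopper-Pearson intervals after thinning to 2000 UMIs; a 0 allows 3 counts. Reported by rule were all 10 members, pathway genes past 2-fold (at most 6 per direction) in epithelial cells or fibroblasts, and the 3 genes most like each member among those with at least 50 CPM in 1 profile. Other pathway genes, shown for contrast, were chosen after their values were seen. Alternatives covered doublets, cell filter, scaling, averaging, centring, resolution, thinning and fold rule. The ratio intervals were tested on simulated Poisson counts, the model they assume. The simulation held no spread between cells, clusters or animals, so it covers counting error only. Versions were Python 3.11.15, scipy 1.17.1, numpy 2.4.6, scikit-learn 1.9.0, pandas 2.3.3 and matplotlib 3.10.9.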

Additional observations from a re-analysis of the deposited data

Results flagged for a closer look

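For 3 members the epithelium and the fibroblasts went opposite ways with both counting intervals clear of 0, and the difference between them was not tested. The share of all genes that meet this rule was not computed. Fgfr1 had a log2 ratio of -1.02 over all epithelial cells and 0.86 in fibroblast-like cells. Fgfr2 had -0.11 and 0.37, and Spry2 had -0.43 and 0.92. The epithelial Fgfr2 value was that of the median gene, -0.11, and turned to 0.035 as a mean of single-cell CPM. Among the alternatives the fibroblast Fgfr2 ratio went down to 0.01. Fgfr3 (-0.19 and 0.52) and Spry4 (-0.34 and 0.25) also had opposite signs, but their fibroblast intervals held 0. Each class has 1 sample per genotype, so the flag rests on 1 pair of values per class.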

How the results depend on the processing

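Over all epithelial or fibroblast-like cells, 19 member ratios were recomputed under 151 alternatives: 135 stayed within the counting interval, 15 moved out of it and 1 changed sign. In 28 of the 135 another clustering resolution left the set of cells as it was, so the value could not move, which leaves 107 of 123. Of 80 alternatives for 16 ratios within classes, 57 stayed, 20 moved and 3 changed sign. The cause was not tested in any case. The Fgfr1 ratio over epithelial cells was -0.96 with the 50 most abundant genes taken out, -0.77 as a mean of single-cell CPM and -0.83 without the stress-led clusters E4, E11 and E17 (chosen after seeing the data, as were all alternatives within classes and the single cluster N0). The mean of single-cell CPM turned Fgfr2 over epithelial cells to 0.035 and gave 1.10 for Etv4. Without the stress-led clusters Spry1 was 1.60. In fibroblast-like cells, the run with doublets kept gave 0.15 for Fgfr1 and 0.79 for Spry1 (under 2-fold), and cluster N0 alone gave 1.15 for Fgfr1. The run with doublets kept also regrouped the cells and raised the induced fibroblast-like cells from 237 to 611. Only 368 induced doublets were put back, and induced epithelial cells also rose, from 4100 to 4404. The class thus took in cells named otherwise in the main run, and the part of the doublets themselves was not tested. Of the pathway genes named in fibroblast-like cells, N0 alone took Sdc4 and Myc below a log2 ratio of 1, to 0.86 and 0.92. Sign changes within classes were Fgfr1 in basal cells at resolution 2.0 (-0.49), Fgfr3 in the upper follicle at resolution 0.5 (-0.20) and Fgf7 in the dermal papilla with the stricter filter (0.57). The log2 ratio of the shares of epithelial cells with an Fgfr1 UMI was -0.82 when thinned and -0.35 when not. Of the pathway list, the 1.5-fold rule gave 1 gene higher and 7 lower in epithelial cells and 10 higher and 2 lower in fibroblast-like cells; adding 1 CPM gave 2 lower in epithelial cells, and no CPM minimum gave 1 lower in fibroblast-like cells. No paired analysis was possible because each genotype had 1 library. Counts of the ligands were low, with 68 and 66 UMIs of Fgf10 in all, and the class names are reconstructions.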
